A study of Mus musculus with 5 samples.

Results

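Tnfrsf17, Tnfrsf13b and Tnfrsf13c encode BCMA, TACI and the BAFF receptor, the receptors through which B cells and plasma cells sense the survival factors BAFF and APRIL. The 3 genes were chosen by symbol among the 33456 genes of the deposited tables, and all 3 were measured in every library. The study sorted mouse plasma cells, which are B cells that have become antibody factories, into groups by surface B220 and by uptake of 2NBDG, and sequenced single cells. B220 is a form of the surface protein CD45 that many plasma cells lose, and 2NBDG is a fluorescent glucose analog that marks cells taking up glucose. All groups came from untreated, unimmunized C57Bl6/N male mice aged 8 to 12 weeks, and all cells were CD138-high, Ly6g- and CD11c- and passed through a sorter 2 times. The spleen gave a B220+2NBDG- group, a B220-2NBDG- group, a B220+2NBDG+ group and a B220-2NBDG+ group, and the bone marrow gave a B220-2NBDG+ group; values of 5 libraries stand in this order below. Each group was 1 library made from cells pooled from 3 mice, so no comparison between groups had a replicate check and the mice within a pool cannot be told apart.

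BAFF (gene Tnfsf13b) and APRIL (gene Tnfsf13) are cytokines of the TNF family, made largely by myeloid and stromal cells. The BAFF receptor binds BAFF alone and keeps mature naive B cells alive through the alternative NF-kB pathway, while TACI binds both ligands and takes part in responses to T cell-independent antigens and in class switching. BCMA binds APRIL most strongly, rises as B cells become plasma cells and is known for supporting the survival of plasma cells in bone marrow.

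In the GRCm38 annotation (GENCODE M21, counted from 1) Tnfrsf17 (ENSMUSG00000022496) lies on chromosome 16 from 11313812 to 11320074 on the plus strand. Tnfrsf13b (ENSMUSG00000010142) lies on chromosome 11 from 61126755 to 61149372 on the plus strand and overlaps the antisense gene Gm12269. Tnfrsf13c (ENSMUSG00000068105) lies on chromosome 15 from 82221743 to 82224369 on the minus strand. The 250 bases before each start site, as RefSeq gives them on GRCm38.p6, are shown because the 3 genes differed in their isotype pattern and this is the DNA next to each start. Each is written 5′ to 3′ on the gene's strand, and capitals mark matches to the motifs spelled out after them. The windows are chr16:11313559-11313808 (plus strand), chr11:61126505-61126754 (plus strand) and chr15:82224381-82224630 (minus strand).
Tnfrsf17: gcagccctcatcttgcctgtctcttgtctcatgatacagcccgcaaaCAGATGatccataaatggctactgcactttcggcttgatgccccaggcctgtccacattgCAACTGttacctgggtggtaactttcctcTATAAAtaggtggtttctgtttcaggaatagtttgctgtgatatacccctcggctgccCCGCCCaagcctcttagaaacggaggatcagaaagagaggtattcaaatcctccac
Tnfrsf13b: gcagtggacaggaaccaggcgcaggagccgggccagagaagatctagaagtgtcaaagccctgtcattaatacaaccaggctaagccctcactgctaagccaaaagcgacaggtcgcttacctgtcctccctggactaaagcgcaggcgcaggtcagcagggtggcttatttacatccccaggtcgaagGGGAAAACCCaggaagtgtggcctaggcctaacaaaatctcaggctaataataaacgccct
Tnfrsf13c: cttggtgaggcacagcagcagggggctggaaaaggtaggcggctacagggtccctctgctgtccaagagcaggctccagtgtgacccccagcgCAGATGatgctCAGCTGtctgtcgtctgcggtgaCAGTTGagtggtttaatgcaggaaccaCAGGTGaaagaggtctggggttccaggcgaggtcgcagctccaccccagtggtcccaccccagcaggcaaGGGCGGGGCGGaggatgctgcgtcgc

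Motifs were searched on both strands in 300 bases, from 250 before to 50 after the start, of the 32544 distinct RefSeq promoters of that length. The Tnfrsf17 window held a TATA box (TATAAA, in 13.6% of all promoters) with its first base at -114, a GC box (GGGCGG, 35.9%) on the other strand at -56, and E-boxes (CANNTG, 72.3%) at -203 and -143. The Tnfrsf13b window held 1 match, to an NF-kB motif (GGGA, any 4 bases, CC; in 20.8% of all promoters), at -61. The Tnfrsf13c window held 4 E-boxes, at -157, -146, -123 and -96, and 2 GC boxes at -26 and -21 that overlap by 1 base. None of the 3 windows held the letters CCAAT (37.4% of all promoters), GGAA and GAAA 2 bases apart (2.73%), TGANTCA (7.79%) or ATGCAAAT (1.75%). GC content was 50%, 55.3% and 61.7% in this gene order, against a median of 53% over all promoters.

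The libraries held 1222, 1296, 1126, 894 and 938 cell barcodes, near the 1000 per subset that the submitters state, with 9451886 to 15591435 unique molecular identifiers (UMIs, each 1 captured RNA molecule) each. Of the 5476 barcodes, 11 sequences occurred in more than 1 library. Immunoglobulin genes took 46.8% to 64.8% of the UMIs, so levels are given as CPM, UMI counts scaled to a fixed total of non-immunoglobulin UMIs, and compared within a gene, not between genes. The labelled cell type held against its markers: the summed plasma cell list, which includes Tnfrsf17, reached 117384 to 307419 CPM, mostly Jchain, and the B cell list, which includes Tnfrsf13c, reached 2421 to 2965 CPM, mostly Cd79a. The lists for T cells (22.02 to 80.1 CPM, Trbc1 at 0), natural killer cells (3.90 to 7.82), neutrophils (0.750 to 3.89), macrophages (24.2 to 40.4), dendritic cells (6.73 to 16.6), erythroid cells (0.450 to 2.66), megakaryocytes (1.17 to 4.01, Pf4 and Ppbp at 0) and stromal cells (0 to 0.759) were low, and the plasmacytoid dendritic cell list (971 to 2799) was mostly Ly6c2, which plasma cells also express. A cluster of 8 T cell-like cells (top genes Ms4a4b, Trbc2 and Cd3d) was left out, which left 5468 plasma cells. Splenic B220+2NBDG- and splenic B220-2NBDG+ cells were set together against the other libraries. Of 4175 genes, 8 were at least 2-fold higher and 12 at least 2-fold lower in both than in each other library. An example is Rps18-ps3, at 272, 8.01, 4.74, 85.1 and 12.4 CPM. No other pairing of libraries was counted, so these are not shown to stand apart more than another pair would. This split was chosen after the data were seen, crosses every comparison of libraries and cannot be told apart from gate or tissue there; the levels of all 3 receptor genes overlapped across it.

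Tnfrsf17 was present in every library and followed the antibody isotype, with the lowest level in IgG cells and the highest in IgA cells of all 5 libraries. A cell was given an isotype when it had at least 10 UMIs of heavy chain constant genes. At least 70% of these had to come from 1 gene, and any IgG subclass gene gave IgG. Cells whose IgG UMIs were spread over subclasses below that share got no isotype. In IgM cells Tnfrsf17 stood at 236, 345, 359, 376 and 475 CPM. In IgG cells it stood at 55.4, 92.1, 73.1, 141 and 250 CPM. In IgA cells it stood at 966, 1137, 489.7, 452 and 487 CPM. The IgG level was below the IgM level of the same library in 5 of 5 libraries, by 1.90- to 4.90-fold, although the IgG cells of bone marrow reached the IgM level of splenic B220+2NBDG- cells. IgA levels were above IgM levels in 5 of 5 libraries, with overlapping intervals in bone marrow (462 to 512 and 444 to 507 CPM). No IgG level reached any IgA level, and the gap within a library ran from 1.94-fold in bone marrow to 17.5-fold in splenic B220+2NBDG- cells. The CPM totals keep Jchain, which stood at 115811, 245573, 221811, 252991 and 217389 CPM in IgM cells. In IgA cells Jchain stood at 107083, 177816, 330411, 367552 and 375265 CPM. Levels by isotype without Jchain in the total were not computed. Of the marker lists of other cell types, the natural killer list moved with isotype without overlap, at 9.37 to 46.6 CPM in IgA, 0.824 to 3.18 in IgM and 0 to 3.18 in IgG cells. In IgA cells that sum was Gzma alone, and Ncr1, Klrd1 and Nkg7 were at 0 in every library. The plasmacytoid dendritic cell list, with Ly6c2 leading in IgM and IgG cells, spanned 917 to 3473 CPM in IgM, 1053 to 9061 in IgG and 984 to 1163 in IgA cells. The part of either list in the receptor levels was not tested.

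**Figure D1:**
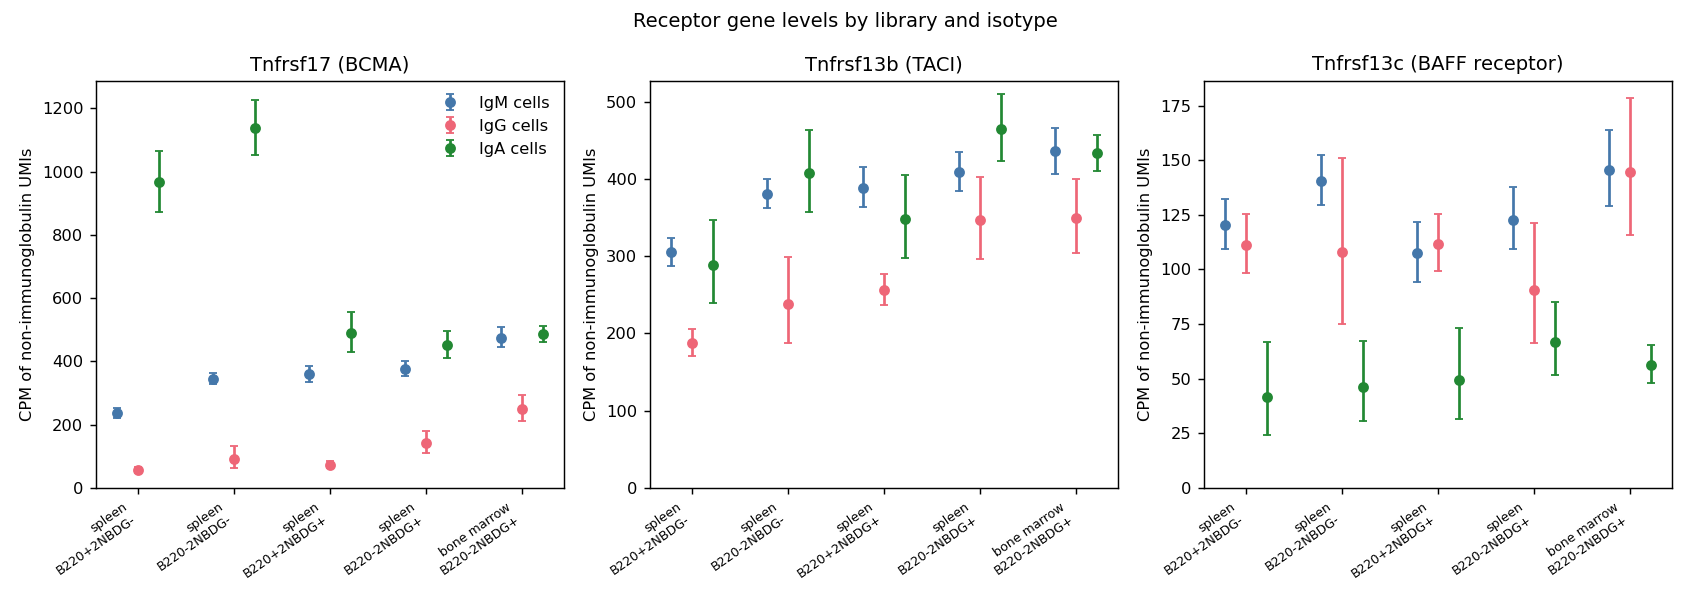
Level of Tnfrsf17, Tnfrsf13b and Tnfrsf13c (CPM, vertical axes) in IgM, IgG and IgA cells of the 5 libraries (horizontal axes), with exact 95% Poisson intervals that cover counting error only. Tnfrsf17 is lowest in IgG cells of each library, Tnfrsf13c is lowest in IgA cells of each library, and Tnfrsf13b differs by at most 1.71-fold between isotypes of a library.

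UMIs were summed per library and isotype (15 sums, 8 residual degrees of freedom with library as a block) and tested over 7948 genes with edgeR's quasi-likelihood test and Benjamini-Hochberg adjustment. Nothing in the labels ties libraries to separate animals, so these p-values measure the spread of an isotype difference over the 5 libraries. Between IgG and IgM cells 202 genes (2.54%) were higher and 294 (3.7%) lower in IgG, and Tnfrsf17 was lower by 3.27-fold (log2 -1.71, SE 0.27, edgeR adjusted p = 0.000317). Between IgA and IgM cells 500 genes (6.29%) were higher and 545 (6.86%) lower in IgA, and Tnfrsf17 was 2.09-fold higher (log2 1.06, SE 0.25, edgeR adjusted p = 0.00446). Between IgG and IgA cells 393 genes (4.94%) were higher and 368 (4.63%) lower in IgG, and Tnfrsf17 was 6.82-fold lower (log2 -2.77, SE 0.28, edgeR adjusted p = 6.04e-07). With library totals in place of TMM factors the split was 319 higher and 843 lower for IgA against IgM and 648 and 223 for IgG against IgA, and the 3 Tnfrsf17 calls remained. Without the library block the first 2 calls were lost (adjusted p = 0.0688 and 0.144).

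The share of cells with a Tnfrsf17 UMI gave the same order in each library. Cells were thinned to 2000 non-immunoglobulin UMIs each, so that a deeper cell had no greater chance of a UMI. After thinning, 33.8%, 42.7%, 48.1%, 49.4% and 57.1% of IgM cells had a Tnfrsf17 UMI. In IgG cells the share was 9.97%, 15%, 12.6%, 20.8% and 29.1%, and in IgA cells 77.9%, 74.8%, 54.4%, 56.7% and 60.7%. IgG shares were below IgM shares and IgM shares below IgA shares within all 5 libraries. The 8 T cell-like cells, which should lack BCMA, held no Tnfrsf17 UMI in 54413 non-immunoglobulin UMIs (median 5692 per cell), which allows up to 67.8 CPM or 36.9% of cells (exact 95% intervals). So few cells set no useful background for the IgG cells, whose level in splenic B220+2NBDG- cells (55.4 CPM, 46.4 to 65.5, median 4754 UMIs per cell) lay under that limit.

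**Figure D2:**
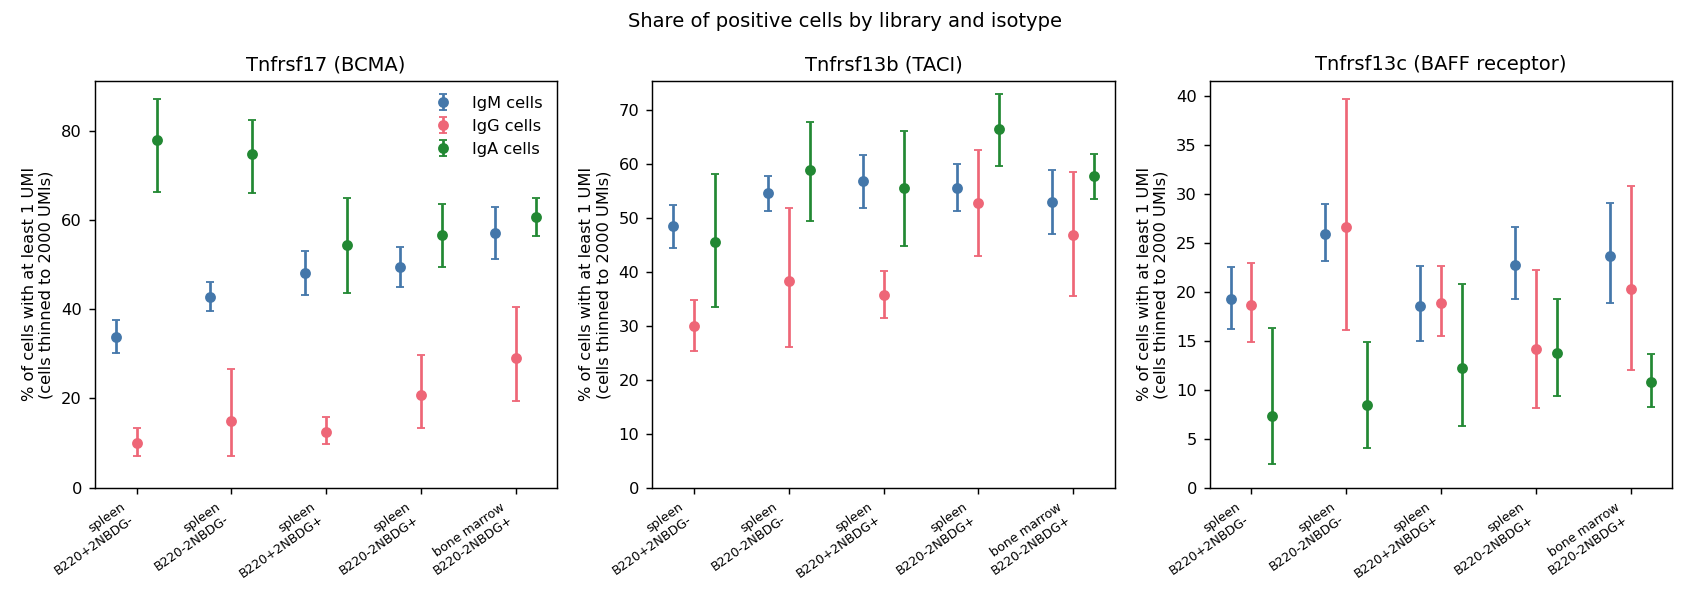
Percent of cells with at least 1 UMI of each receptor gene after thinning to 2000 non-immunoglobulin UMIs (vertical axes), by isotype and library (horizontal axes), with exact 95% Clopper-Pearson intervals. The Tnfrsf17 share runs from 9.97% in IgG cells to 77.9% in IgA cells, both in splenic B220+2NBDG- cells.

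Low Tnfrsf17 was seen in every IgG subclass with at least 20 cells in a library. In splenic B220+2NBDG- cells it stood at 34.9 CPM in Ighg2b, 58.9 CPM in Ighg2c and 35.5 CPM in Ighg3 cells (100, 252 and 55 cells). In splenic B220+2NBDG+ cells it stood at 51.2 CPM in Ighg1, 90.5 CPM in Ighg2b, 67.1 CPM in Ighg2c and 78.9 CPM in Ighg3 cells. In bone marrow the Ighg1, Ighg2b and Ighg2c cells had 247, 234 and 303 CPM, above every splenic subclass (highest 161 CPM). When 90% of the constant gene UMIs had to come from 1 gene, 396 of 417, 66 of 74, 214 of 552, 115 of 117 and 44 of 84 IgG cells remained. The part of mixed constant gene UMIs in these subclass levels was not tested. Subclasses of 1 library were closer to each other than to the IgM cells of that library.

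Over all plasma cells, whatever their isotype, Tnfrsf17 stood at 213 (202 to 224), 426 (409 to 445), 231 (218 to 244), 363 (344 to 382) and 456 (439 to 474) CPM, with exact 95% Poisson intervals of 1266 to 2577 UMIs. Bone marrow came first, then the splenic B220- libraries (2NBDG- above 2NBDG+), then the B220+ libraries (2NBDG+ above 2NBDG-); the intervals of the first 2 and of the last 2 overlapped. All 3 B220- libraries lay above both B220+ libraries. The share of cells with a UMI after thinning was 27.9%, 44.8%, 30.8%, 47.4% and 56.7%, again higher in each B220- library, and 42.2%, 59.2%, 48.9%, 68.0% and 83.4% before thinning.

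The libraries also differed in isotype: IgG cells were 34.3%, 5.71%, 49.0%, 13.1% and 8.96% of plasma cells, and IgA cells 6.34%, 10.4%, 8.61%, 23.9% and 59.0%. The 2-fold rule for libraries called a gene when its CPM differed by 2-fold or more, given a minimum of 25 CPM and of 50 UMIs on the higher side. Among 2NBDG- splenic cells Tnfrsf17 was 2.00-fold lower in B220+ cells (1.87 to 2.14, an exact 95% conditional binomial interval), at the limit of that rule, which 238 of 4026 genes (5.91%) passed as higher and 128 (3.18%) as lower in B220+. This call was lost when scaled to all UMIs (log2 -0.47), as a mean over cells (-0.75) and without cycling cells (-0.69). Within IgM, IgG and IgA cells that ratio was smaller, at 1.46-, 1.66- and 1.18-fold lower. Among 2NBDG+ splenic cells, where 2.45% of genes were higher and 1.48% lower in B220+ cells, Tnfrsf17 was 1.57-fold lower (1.46 to 1.70) over all cells. There it was 1.93-fold lower in IgG cells (1.44 to 2.55), while in IgM and IgA cells the ratios were 0.953 (0.865 to 1.05) and 1.08 (0.923 to 1.27) and their intervals held 1.

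Across the 2NBDG gate, Tnfrsf17 moved by isotype more than in the whole. In B220+ spleen, where 1.15% of genes were higher and 4.61% lower in 2NBDG+ cells, the ratio of 2NBDG+ to 2NBDG- cells was 1.08 (1.003 to 1.17) over all cells; it fell below 1 when scaled to all UMIs (log2 -0.48), as a mean over cells (-0.066) and without cycling cells (-0.17). It was 1.52 (1.38 to 1.67) in IgM, 1.32 (1.05 to 1.66) in IgG and 0.507 (0.430 to 0.597) in IgA cells. In B220- spleen, where 0.895% of genes were higher and 2.12% lower in 2NBDG+ cells, the ratio was 0.851 (0.796 to 0.911) over all cells. It was 1.09 (1.004 to 1.19) in IgM, 1.53 (0.980 to 2.45) in IgG and 0.397 (0.351 to 0.448) in IgA cells. The ratio over all cells thus pointed up in B220+ and down in B220- spleen, while within each isotype both pairs pointed the same way.

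Bone marrow was set against spleen within the B220-2NBDG+ gate, where 41 of 3490 genes (1.17%) were higher and 49 (1.4%) lower in bone marrow. Tnfrsf17 was 1.26-fold higher in bone marrow (1.18 to 1.34) and did not pass the 2-fold rule. The ratio was 1.26 in IgM, 1.78 (1.33 to 2.39) in IgG and 1.08 (0.969 to 1.20) in IgA cells. Each tissue is 1 library here, so tissue and library cannot be told apart.

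Scaling moved the balance of the counts over all genes. Dividing by all UMIs left 17 higher and 1039 lower genes in 2NBDG+ cells of B220+ spleen, 55 and 60 in B220- spleen, 61 and 90 in B220+ cells among 2NBDG+ cells, and 1180 and 51 among 2NBDG- cells. With Jchain left out of the total, the first of these became 73 and 148, the third 72 and 79 and the last 163 and 171. With TMM factors bone marrow had 49 higher and 33 lower genes.

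**Figure D3:**
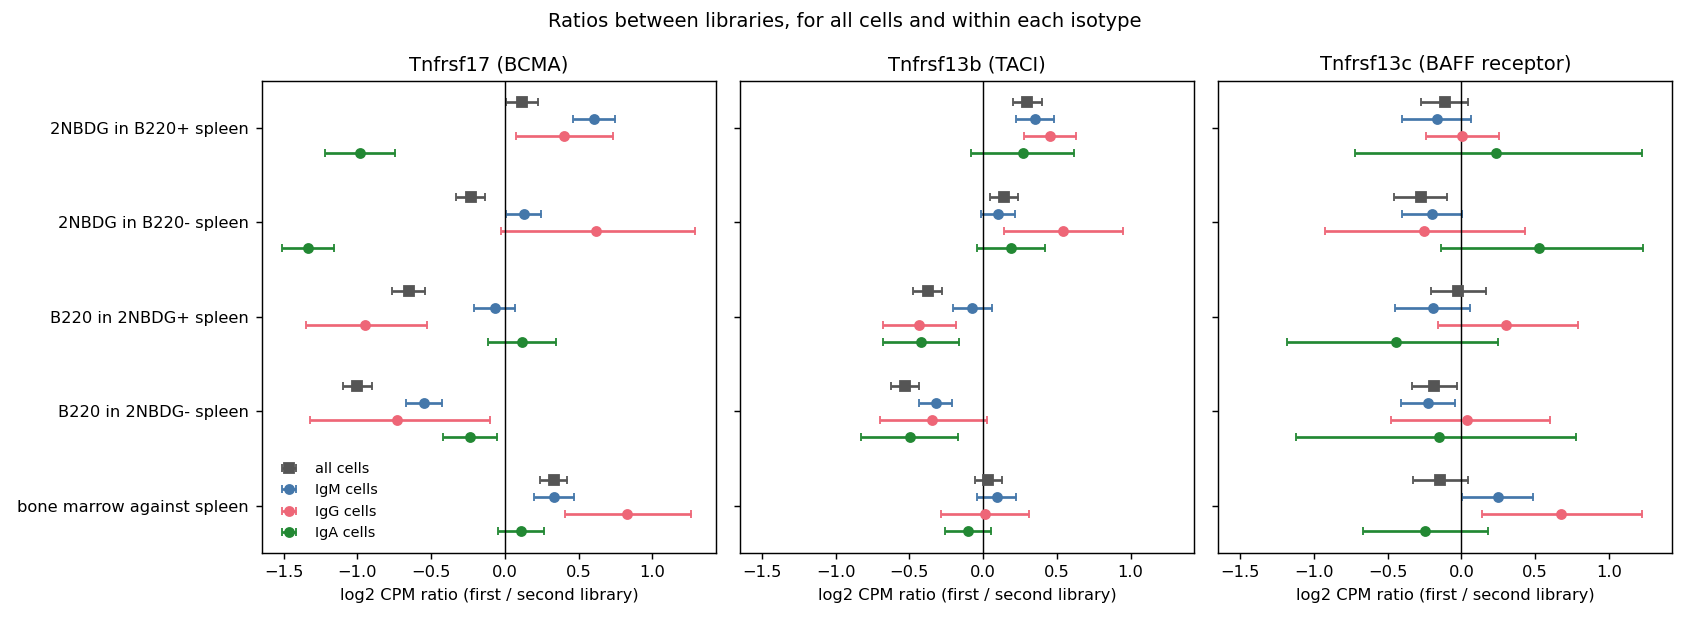
CPM ratios of the 3 receptor genes in the 5 comparisons of libraries, over all cells and within IgM, IgG and IgA cells, with exact 95% conditional binomial intervals that cover counting error only. IgA cells of both 2NBDG comparisons have Tnfrsf17 ratios of 0.507 and 0.397, and IgM cells have 1.52 and 1.09.

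The difference of the isotype difference between 2NBDG+ and 2NBDG- libraries was itself tested, a choice made after the data were seen; the bone marrow library counted as 2NBDG+. On CPM totals that keep Jchain, the Tnfrsf17 excess of IgA over IgM cells was 2.03 and 1.72 on the log2 scale in the 2NBDG- libraries. In the 2NBDG+ libraries it was 0.45, 0.26 and 0.04, with no overlap. Jchain itself was lower in IgA than in IgM cells of each 2NBDG- library and higher in each 2NBDG+ library. The test was prompted by the Tnfrsf17 split and is no independent support for it. It was not repeated with isotypes called at a 90% share of 1 constant gene. At that share 72 of 77, 122 of 135, 46 of 97, 210 of 214 and 536 of 553 IgA cells remained. The interaction was -1.36 (SE 0.28, edgeR quasi-likelihood test, Benjamini-Hochberg adjusted p = 0.00492), and 177 of 7948 genes (2.23%) passed that test. For IgG against IgA cells the interaction was 1.93 (SE 0.34, edgeR adjusted p = 0.00152), and 69 genes (0.868%) passed. For IgG against IgM cells it was 0.58 (SE 0.33, edgeR adjusted p = 0.999994) and did not pass, so both contrasts that passed involve IgA cells. With B220 in place of 2NBDG the Tnfrsf17 interaction was -0.99 (SE 0.46) for IgG against IgM and -1.50 (SE 0.47) for IgG against IgA, and neither passed (edgeR adjusted p = 0.9998 and 0.967). None of the 18 interactions tested on the 3 genes passed for Tnfrsf13b or Tnfrsf13c; 1 of their 12 had an unadjusted p under 0.05, Tnfrsf13c for IgA against IgM with 2NBDG (0.70, SE 0.29, edgeR adjusted p = 0.275).

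High Tnfrsf17 in IgA cells moved with Anxa2, which encodes the membrane-binding protein annexin A2 and led 1 cluster of 186 cells; the split by Anxa2 was chosen after the data were seen. Of the IgA cells, 49 of 77, 64 of 135, 9 of 97, 2 of 214 and 4 of 553 had an Anxa2 UMI. In splenic B220+2NBDG- cells Tnfrsf17 stood at 1170.2 CPM (1049 to 1302) in IgA cells with an Anxa2 UMI and 476 CPM (360.5 to 617) in those without. In splenic B220-2NBDG- cells the levels were 1544 CPM (1408 to 1691) and 697 CPM (602 to 802), and in splenic B220+2NBDG+ cells 1323 CPM (999.5 to 1718) and 411 CPM (353 to 475). Cells with an Anxa2 UMI were deeper in these 3 libraries, with medians of 4717, 4744 and 5430 against 3344, 3896 and 5008 non-immunoglobulin UMIs. After thinning, 88.9%, 86.2% and 75.0% of cells with an Anxa2 UMI had a Tnfrsf17 UMI, against 56.5%, 63.9% and 52.4% of those without. IgA cells without an Anxa2 UMI still exceeded IgM cells in the fit, by a log2 of 0.55 (SE 0.16, edgeR quasi-likelihood, adjusted p = 0.0195), against 1.06 over all IgA cells.

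**Figure D4:**
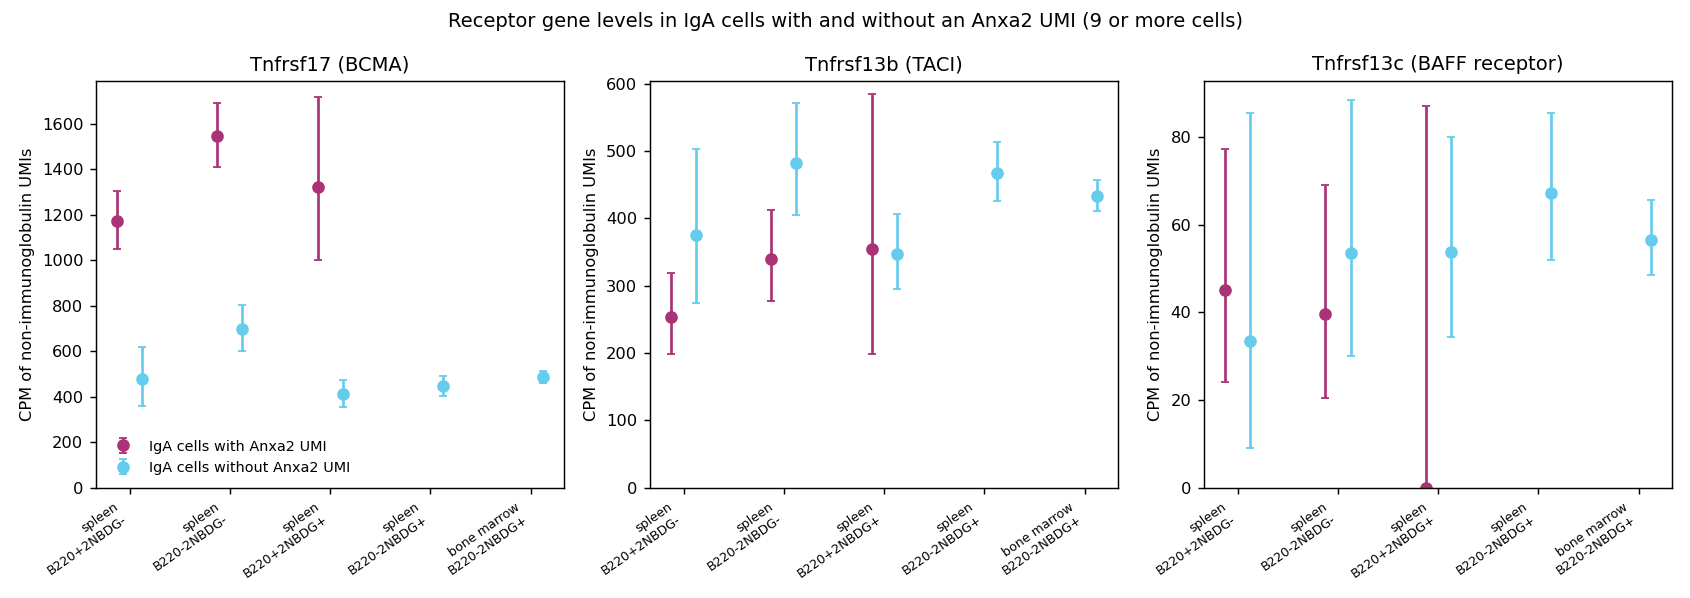
Tnfrsf17, Tnfrsf13b and Tnfrsf13c levels (CPM, vertical axes) in IgA cells with and without an Anxa2 UMI (groups of at least 9 cells) in each library, with exact 95% Poisson intervals. Tnfrsf17 is higher in cells with an Anxa2 UMI in the 3 libraries that hold at least 9 of them.

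Spread between cells was also widest in the IgA cells of the 2NBDG- libraries. After thinning, 52.9%, 58.0%, 21.1%, 20.2% and 24.5% of IgA cells had at least 2 Tnfrsf17 UMIs. The Fano factor of the thinned counts, their variance over their mean, was 2.32, 2.06, 1.63, 1.16 and 1.16, where counting noise alone gives 1.

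Tnfrsf13b, the TACI gene, differed less between isotypes. In IgM cells it stood at 305, 381, 389, 409 and 436 CPM, in IgG cells at 187, 238, 257, 346 and 349.7 CPM, and in IgA cells at 289, 408, 348, 465.7 and 434 CPM. IgG levels were the lowest of the 3 in each library, but across libraries the ranges of all 3 isotypes overlapped. It was 1.46-fold lower in IgG than in IgM cells (log2 -0.55, SE 0.099, edgeR adjusted p = 0.00110) and 1.59-fold lower in IgG than in IgA cells (log2 -0.67, SE 0.10, edgeR adjusted p = 0.000121). On CPM totals that keep Jchain, IgA levels were above IgM levels in 2 libraries and below them in 3. The test of IgA against IgM cells gave no call (log2 0.12, SE 0.098, edgeR adjusted p = 0.521). Without the library block neither call remained (adjusted p = 0.464 and 0.156).

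The thinned share of cells with a Tnfrsf13b UMI was 48.4%, 54.5%, 56.8%, 55.6% and 53.0% in IgM cells, 29.9%, 38.3%, 35.7%, 52.8% and 46.8% in IgG cells and 45.6%, 58.8%, 55.6%, 66.5% and 57.7% in IgA cells. The T cell-like cells were no blank for this gene: 4 of 8 had a UMI, 9 UMIs in all, or 165 CPM (75.6 to 314), and 25% (3.19% to 65.1%) had a UMI after thinning. Of these 8 cells 7 came from the splenic B220+2NBDG- library, where the IgG cells stood at 187 CPM and 29.9%, within those intervals. The same 8 cells held 0 UMIs of Tnfrsf17 and of Tnfrsf13c. Whether their Tnfrsf13b UMIs were free RNA or their own was not tested. These few cells therefore set no useful background, and a level above free RNA was not shown for those IgG cells.

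Over all plasma cells Tnfrsf13b stood at 259.7 (248 to 272), 375 (359 to 392), 319.5 (305 to 335), 415 (395 to 435) and 425 (408 to 442) CPM, from 1638 to 2400 UMIs. As with Tnfrsf17, both B220+ libraries were the lowest, and only the intervals of bone marrow and splenic B220-2NBDG+ cells overlapped among neighbours in the order. No comparison of libraries passed the 2-fold rule. B220+ cells were 1.45-fold (1.35 to 1.54) and 1.30-fold (1.21 to 1.39) lower among 2NBDG- and 2NBDG+ splenic cells, and lower within each isotype of both pairs; in IgG cells of the first pair (1.27-fold, 0.983 to 1.63) and in IgM cells of the other (1.05-fold, 0.959 to 1.15) the interval held 1. The 2NBDG+ to 2NBDG- ratio was 1.23 (1.15 to 1.32) in B220+ and 1.10 (1.03 to 1.18) in B220- spleen and was above 1 in each isotype of both, with an interval that held 1 for IgA cells in both and for IgM cells in B220- spleen. Scaled to all UMIs, the first of these ratios fell below 1 (log2 -0.29). Bone marrow against spleen gave 1.02 (0.962 to 1.09), and a log2 of -0.083 scaled to all UMIs.

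Tnfrsf13c, the BAFF receptor gene, had another pattern: it was lowest in IgA cells. In IgM cells it stood at 120.3, 141, 107, 123 and 146 CPM, in IgG cells at 111, 108, 112, 90.7 and 145 CPM, and in IgA cells at 41.7, 46.3, 49.2, 66.8 and 56.2 CPM. No IgA level reached any IgM or IgG level, while IgM and IgG ranges overlapped. Against IgM cells it was 2.21-fold lower in IgA cells (log2 -1.14, SE 0.14, edgeR adjusted p = 5.79e-06), and within libraries 1.84- to 3.04-fold lower. Against IgA cells it was 1.95-fold higher in IgG cells (log2 0.96, SE 0.16, edgeR adjusted p = 0.000203), with the smallest gap, a log2 of 0.44, in splenic B220-2NBDG+ cells. IgG against IgM cells gave 1 library higher and 4 lower and no call (log2 -0.18, SE 0.13, edgeR adjusted p = 0.507). IgA cells had a Tnfrsf13c UMI in 7.35%, 8.40%, 12.2%, 13.8% and 10.8% of cells after thinning, against 18.6% to 26.0% of IgM and 14.2% to 26.7% of IgG cells. The T cell-like cells held no Tnfrsf13c UMI, with the same upper limit of 67.8 CPM, above all 5 IgA levels, so a level above that of free RNA was not detectable in IgA cells at this number of cells.

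Between libraries Tnfrsf13c varied little: 112 (104 to 120.4), 127 (118 to 137), 104 (95.2 to 112), 105 (95.2 to 116) and 95.2 (87.4 to 104) CPM over all plasma cells, from 415 to 747 UMIs. In the order of these levels every pair of neighbours had overlapping intervals, and bone marrow, with 59.0% IgA cells, was the lowest. No comparison passed the 2-fold rule, and the ratios over all cells lay between 0.826 and 0.986. In bone marrow against spleen the ratio was 0.907 (0.796 to 1.03) over all cells but 1.19 (1.004 to 1.40) in IgM and 1.59 (1.10 to 2.34) in IgG cells. Both B220+ libraries, sorted for a B cell surface protein, were not higher than the B220- libraries of the same 2NBDG gate (ratios 0.881 and 0.986); scaled to all UMIs the first of these turned, to a log2 of 0.35.

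Cells in which no receptor UMI was seen were most frequent among IgG cells. After thinning, no UMI of any of the 3 was seen in 20.2% of IgM cells (559 of 2770), 45.4% of IgG cells (508 of 1119) and 12.6% of IgA cells (128 of 1019). In the IgG cells of the 5 libraries that share was 51.7%, 36.7%, 45.6%, 35.8% and 32.9%, above the IgM and IgA shares of every library (highest 27.8%). All 3 receptors were seen in 5.23%, 1.16% and 3.14% of IgM, IgG and IgA cells. A missing UMI at this depth is not absence of the receptor.

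Within IgM cells, Tnfrsf13b was seen about as often in cells with a Tnfrsf17 UMI as in cells without. The shares with and without were 49.5% and 47.9%, 55.9% and 53.5%, 61.3% and 52.6%, 52.0% and 59.2%, and 53.7% and 52.0% in the 5 libraries, higher in 4 and lower in 1. In IgG cells of the 4 splenic libraries they were 39.5% and 28.9%, 22.2% and 41.2%, 37.1% and 35.5%, and 68.2% and 48.8%. Bone marrow IgG cells had the widest gap, with 78.3% (18 of 23) with and 33.9% (19 of 56) without a Tnfrsf17 UMI. IgA cells of bone marrow had 56.3% and 59.9%. The cells of each group share 1 library, so no test was made.

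Cycling cells, called from at least 3 UMIs of a cell cycle list after thinning to 1000, numbered 176, 22, 15, 1 and 2 in the 5 libraries, so that 2 libraries with at least 20 could be compared. In splenic B220+2NBDG- cells Tnfrsf17 stood at 86.1 CPM in cycling and 263 CPM in other cells, and in splenic B220-2NBDG- cells at 489 and 424 CPM. The first library had the gene low in cycling cells and the other did not, with intervals of 73.4 to 100.3 and 384 to 614 CPM. Over both libraries Tnfrsf17 was lower in cycling cells (log2 -1.03, SE 0.22, edgeR quasi-likelihood test over 8962 genes with 1 residual degree of freedom, adjusted p = 3.91e-05), where 838 genes (9.35%) were higher and 667 (7.44%) lower (1314 and 464 without TMM factors, 751 and 920 with immunoglobulin genes). That fold rests on the first library, and DESeq2 did not call it (adjusted p = 0.120). Within 1 isotype of that library the levels were 86.6 against 288 CPM in IgM and 34.8 against 65.5 CPM in IgG cells. After thinning, 13.6% of cycling and 37.0% of other IgM cells had a Tnfrsf17 UMI. Among IgG cells the thinned shares were 11.1% (4.92% to 20.7%) and 9.71% (6.65% to 13.6%), so no gap was seen at equal depth. Cycling cells of the splenic B220+2NBDG- library were deeper, with a median of 9807 against 4242.5 non-immunoglobulin UMIs. The part of depth in the levels and in the test was not tested.

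Tnfrsf13b stood at 201 CPM in cycling and 283 CPM in other cells of the splenic B220+2NBDG- library and at 218 and 381 CPM in splenic B220-2NBDG- cells, lower in both (log2 -0.85, SE 0.22, edgeR adjusted p = 0.00101; DESeq2 adjusted p = 0.0853). Tnfrsf13c stood at 108 and 114 CPM and at 125 and 127 CPM, with no call (log2 -0.28, edgeR adjusted p = 0.497).

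Surface MHC class II is another trait of young plasma cells, so cells with at least 3 UMIs of H2-Aa, H2-Ab1 and H2-Eb1 after thinning were set against cells with none. Of 6665 genes, 83 (1.25%) were higher and 65 (0.975%) lower in class II-high cells (118 and 53 without TMM factors), and none of the 3 receptor genes passed. Tnfrsf17 stood at 190.4, 439, 211, 299 and 463 CPM in class II-high and 271, 364, 389, 380.2 and 437 CPM in class II-negative cells, lower in 3 libraries and higher in 2 (log2 -0.24, edgeR adjusted p = 0.361). Tnfrsf13b and Tnfrsf13c gave log2 -0.14 and -0.26 (edgeR adjusted p = 0.537 and 0.483). Of the 3 genes, 1 had an unadjusted p under 0.05 and DESeq2 called 0.

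The ligands were close to absent from the sorted cells. Tnfsf13 (APRIL) had 0 UMIs, and Tnfsf13b (BAFF) had 17 UMIs in all 5 libraries, at most 1.17 CPM in 1 library. Sdc1, which encodes the sort marker CD138 and binds APRIL through its sugar chains, stood at 402 to 609 CPM and passed no isotype test (edgeR, 0 of 3 contrasts, with 0 at an unadjusted p under 0.05 and 0 by DESeq2). It was lower in cycling cells (log2 -0.91, SE 0.21, edgeR adjusted p = 0.000179).

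Genes of proteases linked to the shedding of these receptors, gamma-secretase for BCMA and also Adam10 and Adam17, were measured too. Of 9 genes measured 7 were tested, and 0 passed in each of the 3 isotype contrasts by edgeR or by DESeq2, with 1, 1 and 2 at an unadjusted p under 0.05 for IgG against IgM, IgA against IgM and IgG against IgA. Over all genes 2.54% to 6.86% passed in each direction, so a count of 0 among 7 genes is near that background. Psenen, a gamma-secretase subunit, was the most abundant at 309 to 341 CPM.

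Of 22 genes listed for signalling below the receptors, 21 were measured and 19 tested (Camlg was not matched). Between IgG and IgM cells 1 was higher and 4 lower, against 2.54% and 3.7% of all genes, with a median log2 of -0.18 against 0.0035 for all genes tested. DESeq2 called 4 of the 19 in this contrast. Relb and Nfkb2, which encode the transcription factor subunits of the alternative NF-kB pathway, were both lower in IgG cells. Their IgG levels rest on few UMIs, as the splenic B220-2NBDG- IgG sum held 314751 non-immunoglobulin UMIs in all. Intervals were not computed for them. Relb stood at 16.4, 29.6, 20, 21.0 and 38.2 CPM in IgM and 3.69, 6.35, 7.08, 22.2 and 16.8 CPM in IgG cells, lower in 4 of 5 libraries (log2 -1.38, SE 0.28, edgeR adjusted p = 0.00326). Nfkb2 stood at 21.3, 43.8, 23.6, 40.8 and 48.2 CPM in IgM and 9.02, 12.7, 7.08, 30.2 and 30.3 CPM in IgG cells, lower in 5 of 5 (log2 -1.19, SE 0.22, edgeR adjusted p = 0.00106). Nfkbia, the NF-kB inhibitor gene, and Birc3, which encodes an inhibitor of apoptosis that binds TRAF proteins, were also lower (log2 -0.76 and -0.59, edgeR adjusted p = 0.00227 and 0.0455), and the adaptor gene Traf5 was higher (log2 1.38, edgeR adjusted p = 0.00585). Nfkbia, at 231 to 491 CPM, was the most abundant of the list. Between IgA and IgM cells 0 of 19 passed (edgeR, with 3 at an unadjusted p under 0.05 and 0 by DESeq2). Over all genes 6.29% were higher and 6.86% lower there, and with 19 genes a count of 0 is not read as a result. Between IgG and IgA cells Traf5 was higher and Birc3 and Relb lower in IgG, against 4.94% and 4.63% of all genes.

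Of 13 genes for survival and apoptosis 12 were tested, and Bcl2, which encodes a protein that blocks apoptosis, was lower in IgG than in IgM cells. It stood at 54.9, 159.9, 65.5, 139 and 103 CPM in IgM and 8.20, 44.5, 11.01, 70.5 and 35.3 CPM in IgG cells, lower in 5 of 5 libraries (log2 -2.03, SE 0.25, edgeR adjusted p = 1.29e-05). Bcl2l1, which encodes the related BCL-XL, was higher in IgG cells by edgeR (log2 1.21, SE 0.34, edgeR adjusted p = 0.0335). It stood at 12.4, 5.29, 4.55, 7.003 and 7.95 CPM in IgM and 22.1, 25.4, 22.02, 6.04 and 11.8 CPM in IgG cells. In splenic B220-2NBDG+ cells it was thus lower in IgG cells, and in the other libraries higher. These levels rest on few UMIs, 281 over all cells of the 5 libraries. DESeq2 called 1 of the 12 survival genes in this contrast. Against IgM cells, IgA cells had less Bcl2 (log2 -0.77, adjusted p = 0.0204) and less Bcl2l11, which encodes the pro-apoptotic protein BIM (log2 -1.17, edgeR adjusted p = 0.0177). Between IgG and IgA cells Bcl2l11 was higher in IgG (log2 1.79), and Bcl2 and the pro-apoptotic Bbc3 were lower (log2 -1.26 and -0.76). Mcl1, which BCMA signals are known to sustain, passed none of the 3 isotype tests and stood at 112 to 132 CPM over the libraries. Pim1, a kinase gene, was the most abundant at 396 to 528 CPM.

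Between libraries, few members of these lists passed the 2-fold rule across the B220 gate. Among 2NBDG- splenic cells 3 of 8 signalling genes that could be tested were at least 2-fold lower in B220+ cells (Nfkb2, Relb and Nfkbia, ratios 0.436, 0.434 and 0.495), against 3.18% of all genes, and among 2NBDG+ cells 1 of 7 was (Nfkb2), against 1.48%. Of the survival genes 1 was higher and 1 lower in each gate, of 8 tested among 2NBDG- and 7 among 2NBDG+ cells, where 5.91% and 2.45% of all genes were higher. Bcl2 was lower and Bcl2l11 higher in B220+ cells of both 2NBDG gates (ratios 0.261 and 3.01 among 2NBDG- cells and 0.336 and 3.82 among 2NBDG+ cells). The B220+ libraries held the most IgG cells, and the part of isotype in these ratios was not tested.

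Of 20 other TNF receptor genes only 3 were high enough to test, Fas, Cd27 and Tnfrsf18, of which Fas and Cd27 reached 52.9 and 44.3 CPM. Tnfrsf18 (GITR) was lower in IgG and in IgA than in IgM cells (log2 -0.71 and -1.08, edgeR adjusted p = 0.00984 and 0.000237). Fas, which encodes a death receptor, was higher in IgA than in IgM cells (log2 1.01, SE 0.16, edgeR adjusted p = 0.000116) and lower in IgG than in IgA cells (log2 -0.61, edgeR adjusted p = 0.0344). In cycling cells Tnfrsf18 and Cd27 were lower by edgeR (log2 -1.46 and -1.68). DESeq2 called 0 of the 3 in cycling cells and 0 for IgG against IgA cells.

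Of 12 genes of B cell and plasma cell identity 10 were tested. IgG cells had more H2-Aa (log2 0.87) and less Prdm1 and Jchain (log2 -0.50 and -0.69) than IgM cells; Prdm1 encodes Blimp-1, the regulator of plasma cell fate, and Jchain the chain that joins polymeric antibody. IgA cells had less Ms4a1, which encodes the B cell protein CD20, than IgM cells (log2 -1.97, SE 0.26, edgeR adjusted p = 9.83e-06). Between IgG and IgA cells Cd79b, Ms4a1, Xbp1 and H2-Aa were higher and Prdm1 and Jchain lower in IgG by edgeR. Over all genes 4.94% were higher and 4.63% lower there, and DESeq2 called 4 of the 10. In cycling cells 6 of the 10 were lower by edgeR, Jchain among them (log2 -2.02), against 7.44% of all genes, and DESeq2 called 3. Of the 12 survival genes 4 were lower by edgeR and 1 was called by DESeq2, with Bcl2 at log2 -2.56 by edgeR.

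Genes whose levels over the 15 library and isotype sums were most like each receptor gene were ranked by Pearson's r of log2(CPM + 5) among 2094 genes with a mean of at least 50 CPM. The sums share libraries and depth, so r is a description. Most like Tnfrsf17 were Shisa5 (r = 0.929), Limd2 (0.845), Nacc2 (0.835), Il2rg (0.832) and Cmah (0.807). Most like Tnfrsf13b were Bbs9 (0.890), Kcnmb4os2 (0.862), Pls1 (0.835), Rnase6 (0.822) and Jchain (0.819). Most like Tnfrsf13c were Tpd52 (0.933), Dgcr6 (0.922), Prmt7 (0.917), Cd81 (0.911) and Ctss (0.907). Among the receptors themselves r was 0.73 for Tnfrsf17 with Tnfrsf13b, -0.57 for Tnfrsf17 with Tnfrsf13c and -0.15 for Tnfrsf13b with Tnfrsf13c (15 sums).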

How the data were processed

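Single-cell 3' RNA libraries (10x Genomics, version 2 chemistry) of 5 sorted groups, 1 library each, were analysed. The deposited values are raw UMI counts per gene and cell barcode. Cell Ranger 2.1 and GRCm38 are named in the submitters' processing notes; the annotation and the barcode filter were not given in the sources used here. A 3' library counts transcript ends, so reads of overlapping genes can be misassigned. The 3 genes and all gene lists were chosen with earlier results of these data known.

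All 5476 barcodes passed 500 UMIs, 200 genes and under 10% mitochondrial UMIs. Of 33456 gene IDs, 32655 matched GENCODE M21, which gave symbols and 266 immunoglobulin genes; these were left out of totals and tests. Cells were clustered with scanpy 1.11.5 (2000 variable genes, 30 components, 15 neighbours, Leiden resolution 1, leidenalg 0.10.2, igraph 0.11.9; Python 3.11.15), and 1 cluster of 8 T cell-like cells was left out. The 69 doublets (1.26%) that Scrublet called stayed in, and were removed in 1 alternative. Thinning left out 120, 192, 94, 62 and 26 cells with under 2000 non-immunoglobulin UMIs.

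CPM ratios between libraries carry no test; their intervals, as those of levels (Poisson) and shares (Clopper-Pearson; scipy 1.17.1), are exact at 95% and cover counting error only. In ratios a count under 3 UMIs was raised to 3. Isotype, cycling and class II differences were tested on UMI sums of at least 20 cells with edgeR 4.0.16 (R 4.3.3; glmQLFTest, TMM, filterByExpr, library as block, Benjamini-Hochberg at 0.05); DESeq2 1.42.0 was an alternative. The isotypes of a library come from the same cells' pool, which is where the block comes from. On counts simulated for IgG against IgM (7916 genes), edgeR called 50 of 50 genes raised 2-fold, 49 of 50 lowered 2-fold, 50 of 50 raised and 50 of 50 lowered 4-fold, and 4 of 7716 unchanged genes. These counts had 1 mean profile for all libraries, 1 fixed dispersion and changed genes drawn from the more abundant ones. The isotype difference did not vary between libraries in them, so they do not measure power or error on the real sums. The text names the 3 genes, the most abundant member of each list and the 5 genes most like each receptor gene. It also names list members that passed a rule or test, but not every such member in every comparison. Rps18-ps3, Anxa2 and Mcl1 were named after their values were seen. Alternatives changed the scaling, filter, isotype threshold, thinning, doublets, cells and libraries used; those within IgG or IgA cells, without Anxa2 cells and the interactions were added after the data were seen.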

Additional observations from a re-analysis of the deposited data

Results flagged for a closer look

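Tnfrsf13c differed between IgG and IgA cells by a log2 of 0.44 in splenic B220-2NBDG+ cells, a value far from those of the other 4 libraries (1.18 to 1.41). The gap to its nearest neighbour was large against the whole range of the 5 libraries. The 3 genes and 3 isotype contrasts gave 9 such groups, and chance alone sets apart about 1 in 20. Those cells had the highest Tnfrsf13c level among IgA cells (66.8 CPM) and the lowest among IgG cells (90.7 CPM, 45 UMIs).

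The Tnfrsf17 difference of IgA from other cells was not the same on both sides of the 2NBDG gate. The interaction was -1.36 on the log2 scale for IgA against IgM cells and 1.93 for IgG against IgA cells, both past edgeR's quasi-likelihood test after adjustment over 7948 genes. For IgG against IgM cells it was 0.58 and did not pass (edgeR adjusted p = 0.999994). The test was chosen after this split had been seen in Tnfrsf17, so it describes the split and is no independent support for it.

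Over all cells Tnfrsf17 was higher by a log2 of 0.12 in 2NBDG+ than in 2NBDG- cells of B220+ spleen and differed by -0.23 in B220- spleen. These directions are opposite, with 1 library on each side, and the difference between them was not tested. The first turned negative, as in B220- spleen, when scaled to all UMIs (-0.48), as a mean over cells (-0.066) and without cycling cells (-0.17).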

How the results depend on the processing

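Of 186 alternative values of the tests, 177 kept their direction and side of the threshold; of 150 library ratios, 82 moved by less than counting error, 56 moved by more and 12 reversed. The cause was not tested in any of these cases. Values are log2 differences unless named otherwise.

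The fit with no replicate block, which drops the pairing of isotypes by library, lost the calls on Tnfrsf17 (IgG against IgM -1.57, IgA against IgM 1.01) and Tnfrsf13b (IgG against IgM -0.51, IgG against IgA -0.67), and in cycling cells Tnfrsf17 (-0.74, adjusted p = 0.523) and Tnfrsf13b (-0.94, adjusted p = 0.0716). It called 66, 395 and 307 genes for IgG against IgM, IgA against IgM and IgG against IgA, in place of 496, 1045 and 761, 642 in place of 1505 for cycling and 3 in place of 148 for class II. DESeq2 gave -1.01 and -0.91 for Tnfrsf17 and Tnfrsf13b in cycling cells, with 449 genes called for cycling and 64 for class II. Leaving out 1 library at a time gave 228 to 520 genes for IgG against IgM (lowest without splenic B220+2NBDG+, then 302 without splenic B220-2NBDG+), 797 to 932 for IgA against IgM, 471 to 693 for IgG against IgA (lowest without splenic B220+2NBDG+, then 487 without splenic B220+2NBDG-) and 48 to 167 for class II (lowest without splenic B220-2NBDG-, then 79 without splenic B220-2NBDG+). Each isotype call on the 3 receptor genes held in these 5 fits. For class II, immunoglobulin genes gave 53, a minimum of 2 UMIs 80 and IgM cells alone 35 genes, where Tnfrsf13b reversed to 0.054. Cycling fits without 1 library, with at least 5 UMIs or in IgM cells alone could not be run, since fewer than 2 libraries had 20 such cells.

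The 5 library comparisons are called A (2NBDG in B220+ spleen), B (2NBDG in B220- spleen), C (B220 in 2NBDG+ spleen), D (B220 in 2NBDG- spleen) and E (bone marrow against spleen) here. Scaling to all UMIs, which moved the median of all genes by -0.59, 0.19, -0.25, 0.53 and -0.12, gave -0.48, -0.044, -0.90, -0.47 and 0.21 for Tnfrsf17, -0.29, 0.33, -0.62, -0.00016 and -0.083 for Tnfrsf13b, and -0.71, -0.088, -0.27 and 0.35 in A to D for Tnfrsf13c. Without Jchain in the total A, C and D gave 0.27, -0.80 and -1.23 for Tnfrsf17 and 0.46, -0.52 and -0.76 for Tnfrsf13b, and D -0.41 for Tnfrsf13c. TMM factors gave -1.11 and 0.48 for Tnfrsf17 and -0.64 and 0.19 for Tnfrsf13b in D and E. In A and D, means over cells gave -0.066 and -0.75 for Tnfrsf17 and 0.13 and -0.42 for Tnfrsf13b, and leaving out cycling cells gave -0.17 and -0.69 and 0.18 and -0.43.

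IgM cells alone gave 0.60, 0.13, -0.070 and -0.55 in A to D for Tnfrsf17, -0.074 and -0.32 in C and D for Tnfrsf13b and 0.25 in E for Tnfrsf13c. Isotypes weighted equally gave -0.45, -0.70, -0.073 and -0.32 in A to D for Tnfrsf17, 0.25 and -0.39 in B and D for Tnfrsf13b and -0.074 and 0.31 in B and E for Tnfrsf13c. IgG cells alone gave 0.40, 0.61, -0.95, -0.74 and 0.83 for Tnfrsf17, 0.45, 0.54 and -0.35 in A, B and D for Tnfrsf13b and 0.30, 0.041 and 0.67 in C to E for Tnfrsf13c. IgA cells alone gave -0.98, -1.33, 0.12, -0.24 and 0.11 for Tnfrsf17, -0.10 in E for Tnfrsf13b and 0.24, 0.53 and -0.44 in A to C for Tnfrsf13c.

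Shares of positive cells follow the depth, by construction. Thinned to 1000 UMIs they were 18.1%, 28.3%, 18.2%, 25.6% and 36.6% for Tnfrsf17, 23.7%, 31.8%, 27.4%, 35.3% and 36.0% for Tnfrsf13b and 9.34%, 12.0%, 8.24%, 9.30% and 8.02% for Tnfrsf13c. Unthinned they were 42.2%, 59.2%, 48.9%, 68.0% and 83.4%, then 66.9%, 71.9%, 70.6%, 79.9% and 87.8%, and 38.9%, 34.5%, 35.5%, 35.9% and 35.5%. With at least 2 UMIs they were 10.0%, 18.7%, 9.98%, 17.5% and 22.7%, then 13.7%, 18.1%, 14.9%, 20.9% and 20.8%, and 2.74%, 3.72%, 2.81%, 2.40% and 2.19%.

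Limits: each group is 1 library of pooled mice, so ratios between libraries have no replicate error. IgG sums rest on as few as 74 cells, IgA sums on 77, and the cycling test on 2 libraries, of which 1 had Tnfrsf17 lower in cycling cells. Levels are of RNA; 3' counts do not show receptor protein or its shedding.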
